A study of Cricetiscus sungorus with 216 samples.

Results

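The genes described are 9 transcripts by which microglia, the resident macrophages of the brain, are commonly recognised: the complement chains C1qa, C1qb and C1qc, the receptors Cx3cr1, Csf1r, P2ry12 and Trem2, the Trem2 adaptor Tyrobp, and the surface protein Tmem119. They were chosen by gene symbol, with the isoform entries of a symbol summed, and all 9 were listed in each of the 4 tissue tables, which held 20156 gene symbols for the mediobasal hypothalamus (MBH), 21821 for the dorsomedial hypothalamus (DMH), 18960 for the paraventricular nucleus (PVN) and 22482 for the pituitary gland. Polyadenylated RNA of 54 male Djungarian hamsters (Phodopus sungorus, 3 to 8 months of age, with no genetic change) was sequenced as Nanopore cDNA. A group of 6 hamsters stayed in a long photoperiod (LP, 16 h of light), and 8 groups of 6 were moved to a short photoperiod (SP, 8 h of light) for 4, 8, 12, 16, 20, 24, 28 or 32 weeks. Each hamster gave all 4 tissues, so there were 54 libraries in each of the 4 tables. The SP weeks were read as an induction phase (4 and 8), a maintenance phase (12, 16 and 20) and a recovery phase (24, 28 and 32). The hypothalamic samples were 1 mm punches and the gland was dissected, so every library mixed cell types, and fewer microglia could not be told apart from less RNA per microglial cell.

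C1qa, C1qb and C1qc encode the chains of C1q, the recognition molecule that starts the classical complement pathway and tags synapses for removal; in the brain, microglia are its main source. Csf1r is the receptor for Csf1 and Il34, on which microglia depend for survival, and Cx3cr1 binds Cx3cl1, a ligand displayed by neurons. P2ry12 senses ADP released by injured cells and guides the microglial processes, while Trem2 binds lipids and lipoproteins such as ApoE and signals through Tyrobp. Tmem119 separates microglia from most other macrophages, and P2ry12 and Tmem119 are known to fall when microglia become reactive.

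The members were read from few counts. In the MBH, where the 54 libraries held 5996 to 13208361 counts (median 1422834), the summed counts over all libraries were 557 for C1qa, 1311 for C1qb, 1239 for C1qc, 406 for Trem2, 219 for Csf1r, and 158 for Cx3cr1, with Tyrobp between the last 2. P2ry12 had 1073 counts, but its 6 isoform entries held equal counts in 46 of the 48 libraries where it was read, and the highest entry alone held 180, so the sum is not a number of separate reads. In the PVN table every member had a single entry. C1qc and Trem2 had 2 isoform entries each in the MBH, which were equal in 44 of 52 and 29 of 45 libraries. The DMH gave fewer member counts from a like depth (149289 to 9084072 counts, median 1626423), from 561 for C1qb down to 69 for Cx3cr1. The PVN libraries were shallower (159 to 998245 counts, median 168902) and their table came from another set of isoform identifiers, so PVN levels were not set against the other tissues; there C1qb had 781 counts and Cx3cr1 93. In the pituitary gland (29219 to 523544 counts, median 81120) the 3 C1q chains had 16, 18 and 35 counts and no other member had more than 7. Tmem119 was near the limit of detection in all tissues, with 10 counts in the MBH, 10 in the DMH, 14 in the PVN and 1 in the pituitary gland.

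Snap25, a synaptic protein of neurons, was read in 53 MBH, 50 DMH and 53 PVN libraries, but also in 53 gland libraries, so it does not separate brain from gland. The pituitary hormones Prl and Gh were read in all 54 gland libraries. Macrophages of the brain borders were hardly seen: of their markers, Mrc1 had 8 counts, Cd163 3 and Lyve1 4 over the 54 MBH libraries, Mrc1 had 3 counts in the DMH and 14 in the PVN, and Pf4 had the most in the MBH, with 24. Libraries without any member count numbered 1 in the MBH (a 20-week library of 5996 counts), 9 in the DMH, 3 in the PVN (an LP library of 159 counts and 16-week libraries of 5158 and 22217 counts) and 22 in the pituitary gland. Values below are CPM, the usual per-library scaling of counts, adjusted by the TMM (trimmed mean of M values) factors of edgeR within a tissue, and folds are given as log2 of SP over LP.

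Photoperiod was compared first. By the quasi-likelihood test of edgeR, with 0.1 as the limit for the adjusted p, none of the 9 genes passed in any tissue, whether over the 9 groups, at any SP week, in any SP phase, or as a 32-week cycle. Over the 9 groups, 0 of 9 members were called in the MBH, where 0.442% of all symbols were, 0 of 9 in the DMH (background 4.62%), 0 of 9 in the PVN (0.0158%) and 0 of 9 in the pituitary gland (9.56%). With these backgrounds, no call among 9 genes is no sign that the members moved less than other genes. At an unadjusted p below 0.05 the same test held 1 member in the MBH (Tmem119), 1 in the DMH (Cx3cr1) and 0 in the PVN and the pituitary gland, where 8.01%, 14.7%, 6.15% and 17.7% of all symbols did. DESeq2 called none of the members over the 9 groups in any tissue, and 0 had an unadjusted p below 0.05 with it, but it called at most 0.391% of all symbols in a tissue.

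The tests by time gave the same picture. Of 72 member-by-week tests per tissue 0 passed, against a background of 0.0093% in the MBH, 0.00401% in the DMH, 0.00278% in the pituitary gland and 0% in the PVN, and 1, 3, 1 and 0 of the 72 had an unadjusted p below 0.05 (all symbols 4.56%, 6.85%, 6.77% and 3.67%). Of 27 member-by-phase tests per tissue 0 passed (background 0.139%, 0.62%, 0.383% and 0.00703% in the same order), and 0, 2, 0 and 0 had an unadjusted p below 0.05 (all symbols 5.41%, 9.07%, 6.7% and 4.12%). For the 32-week cycle 0 of 9 passed in each tissue (background 1.71%, 3.07%, 5.7% and 0.538%), and 1, 0, 1 and 0 had an unadjusted p below 0.05 (all symbols 7.71%, 10.1%, 13.7% and 6.4%). DESeq2 called no member at any week, in any phase or for the cycle; at an unadjusted p below 0.05 it had 1 of the week tests in the MBH and 2 in the PVN, none of the phase tests, and 2 cycle tests in the MBH and 1 in the DMH. DESeq2 called at most 0.0196% of all week tests and 0.0614% of all phase tests in a tissue, and 0.401%, 0.00921%, 0.00903% and 5.72% of the cycle tests in the MBH, DMH, gland and PVN, so its lack of member calls says little about the members. Of the 27 exact permutation tests of a phase against LP in each tissue, 0 were below 0.05 in the MBH and the gland, 2 in the DMH and 1 in the PVN. When the 9 group means of a member were put in order, all 8 neighbouring pairs differed by less than the pooled within-group SD for each member in the MBH, DMH and PVN. Ordering 9 means makes such gaps small, so nothing is drawn from this. The gap from the lowest to the highest mean exceeded that SD for every MBH member but C1qa and P2ry12. It did so for every member in the DMH, and for every PVN member but Csf1r, Trem2 and Tyrobp.

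The C1q chains are the best read members, and C1qb was the one whose MBH level was lower than in LP at every SP week. Its LP libraries ran from 8.92 CPM over a median of 14.2 to 28.7, with a mean of 16.7 ± 7.22 CPM (SD, n = 6). The lowest mean was that of 20 weeks, at 9.93 ± 5.54 CPM, from libraries of 0 to 15.6 CPM with a median of 10.3. The 0 is the library of 5996 counts, without which the mean was 11.9 ± 2.97 CPM (n = 5) and that of 24 weeks the lowest (10.4 ± 5.37 CPM). The groups overlapped: no maintenance library lay above every LP library, and 4 of 18 lay below every LP library. The log2 fold changes of the 8 weeks, which share their LP libraries, ran from -0.54 at week 4 (SE 0.34, unadjusted p = 0.115, adjusted p = 0.990, edgeR) to -0.15 at week 32. The phase nearest to the threshold was maintenance, at -0.44 with a 95% interval from -0.98 to 0.11 (adjusted p = 0.890, edgeR; exact permutation test of the mean CPM, 2-sided, p = 0.0791).

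Neither C1qa nor C1qc was below LP at every SP week. The fitted folds of C1qa pointed down at 7 weeks and up at 1, and down in all 3 phases. Those of C1qc pointed up at 5 weeks and down at 3. C1qa had 6.27 ± 4.66 CPM in LP (1.27 to 11.3, median 6.55), and its group means ran from 3.87 ± 3.10 at 20 weeks to 6.86 ± 2.82 at 32 weeks, a gap smaller than the pooled within-group SD of 3.29. Without the library of 5996 counts the 20-week mean was 4.64 ± 2.74 CPM (n = 5), and that of 8 weeks (4.00 ± 3.16 CPM) the lowest. Its smallest p among weeks was at week 20 (log2 fold change -0.68, SE 0.55, adjusted p = 0.955, edgeR) and among phases in maintenance (-0.36, 95% interval -1.18 to 0.46). C1qc had 11.5 ± 5.21 CPM in LP (2.55 to 16.2, median 12.5) and its highest mean at 24 weeks, 23.9 ± 27 CPM. That mean rests on a library of 71577 counts with 78.7 CPM of C1qc from 6 counts, and the median of the 24-week group was 13.3 CPM. Week 32 gave its smallest p (0.53, SE 0.44, adjusted p = 0.956), and recovery the smallest among phases (0.52, 95% interval -0.23 to 1.27).

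**Figure D1:**
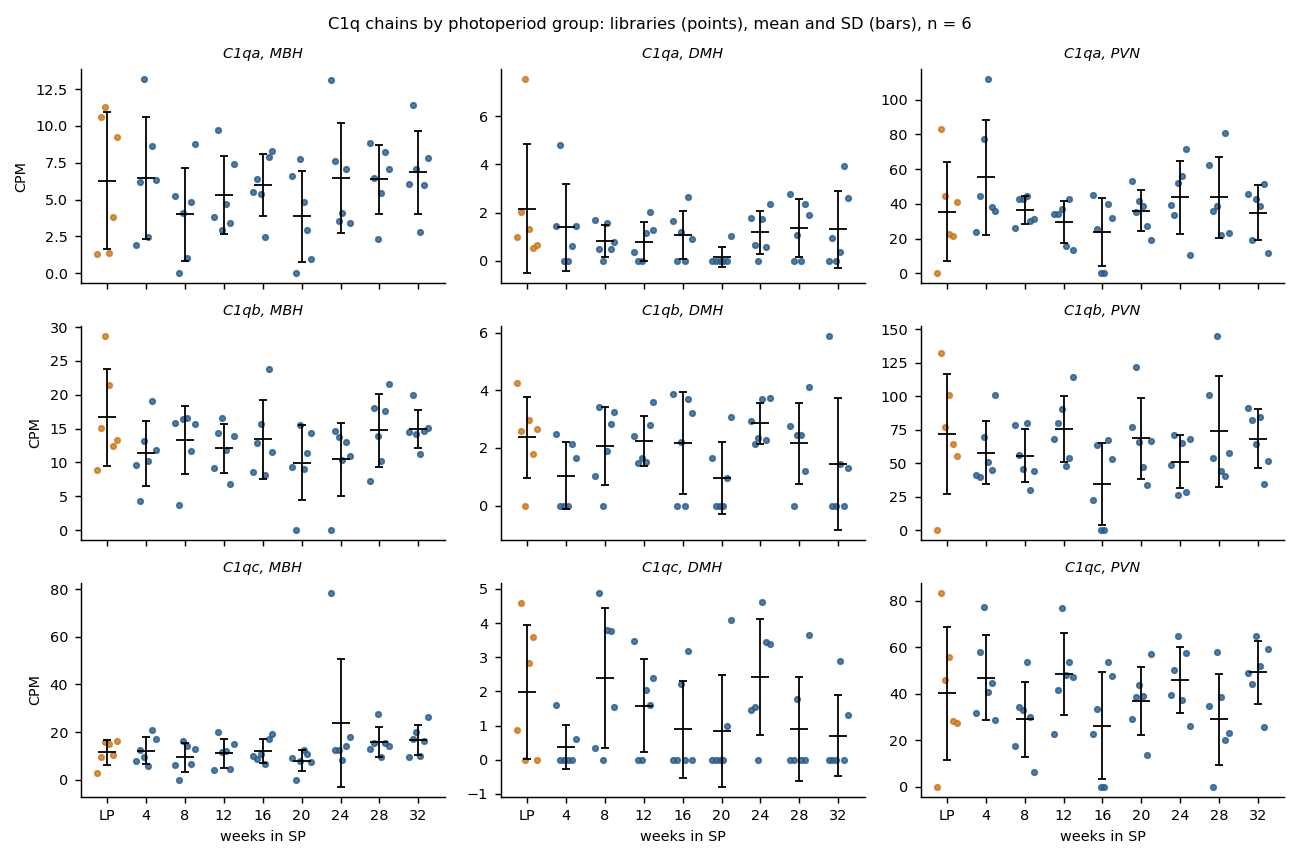
CPM of C1qa, C1qb and C1qc (vertical axes) in LP and after 4 to 32 weeks of SP (horizontal axis) in the MBH, DMH and PVN; points are libraries, bars the mean and SD of 6. The groups overlap in every panel, and the LP mean of C1qb in the MBH (16.7 CPM) is above all 8 SP means.

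Among the receptors of the MBH, P2ry12 was higher than in LP at every SP week, again without passing the test. Its LP libraries ran from 0 over a median of 5.56 to 15.7 CPM (mean 7.01 ± 6.15, n = 6), and the highest mean was that of 32 weeks, 14.2 ± 7.40 CPM, with libraries from 6.72 to 21.8. The gap between these means of 7.17 CPM was smaller than the pooled within-group SD of 7.31, which held for no other MBH member but C1qa. For Trem2, for example, the gap was 4.54 CPM against an SD of 2.64. The log2 fold changes ran from 0.26 at week 12 to 0.96 at week 32 (SE 0.61, unadjusted p = 0.125, adjusted p = 0.956, edgeR), and the smallest p among phases was that of induction, 0.86 with a 95% interval from -0.23 to 1.96 (adjusted p = 0.925). With the highest isoform in place of the sum the calls were the same, 0 of 9 over the groups.

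The fitted fold changes of Csf1r were also above 0 at all 8 weeks in the MBH, although the mean CPM of 4 and 16 weeks lay slightly below that of LP. LP had 1.60 ± 0.952 CPM (0.579 to 2.92, median 1.31) and 28 weeks 3.10 ± 2.14 CPM (1.29 to 6.94, median 2.27). The log2 fold change at week 28 was 0.93 (SE 0.60, adjusted p = 1, edgeR) and that of recovery 0.56 (95% interval -0.46 to 1.57). Cx3cr1 had 1.34 ± 0.751 CPM in LP and its smallest p at week 4 (3.00 ± 1.73 CPM, log2 fold change 0.98, SE 0.74, adjusted p = 0.990) and, among phases, in induction (0.48, 95% interval -0.85 to 1.82). The fold changes of Cx3cr1 pointed up at 3 weeks and down at 5.

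Trem2 had 4.47 ± 3.15 CPM in LP (0 to 7.70, median 4.82); its lowest mean was that of 24 weeks, 1.5 ± 1.28 CPM with libraries of 0 to 2.72, and its highest that of 28 weeks, 6.05 ± 3.86 CPM. Week 24 against LP gave the smallest p of any member read in at least 27 MBH libraries (log2 fold change -1.40, SE 0.73, unadjusted p = 0.0595, adjusted p = 0.972, edgeR), and recovery the smallest among its phases (-0.47, 95% interval -1.54 to 0.61). Tyrobp had 1.31 ± 1.76 CPM in LP, the lowest of its 9 means, and 3.76 ± 4.76 CPM at 24 weeks, where 1 count in the library of 71577 counts stood for 13.1 CPM. Its smallest p was at week 32 (0.71, SE 0.76, adjusted p = 1), and recovery was at 0.50 (95% interval -0.81 to 1.80). Tmem119 was read in 5 MBH libraries, and 7 of its 10 counts came from 2 libraries of 28 weeks; LP had 0 counts, so no fold is given.

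**Figure D2:**
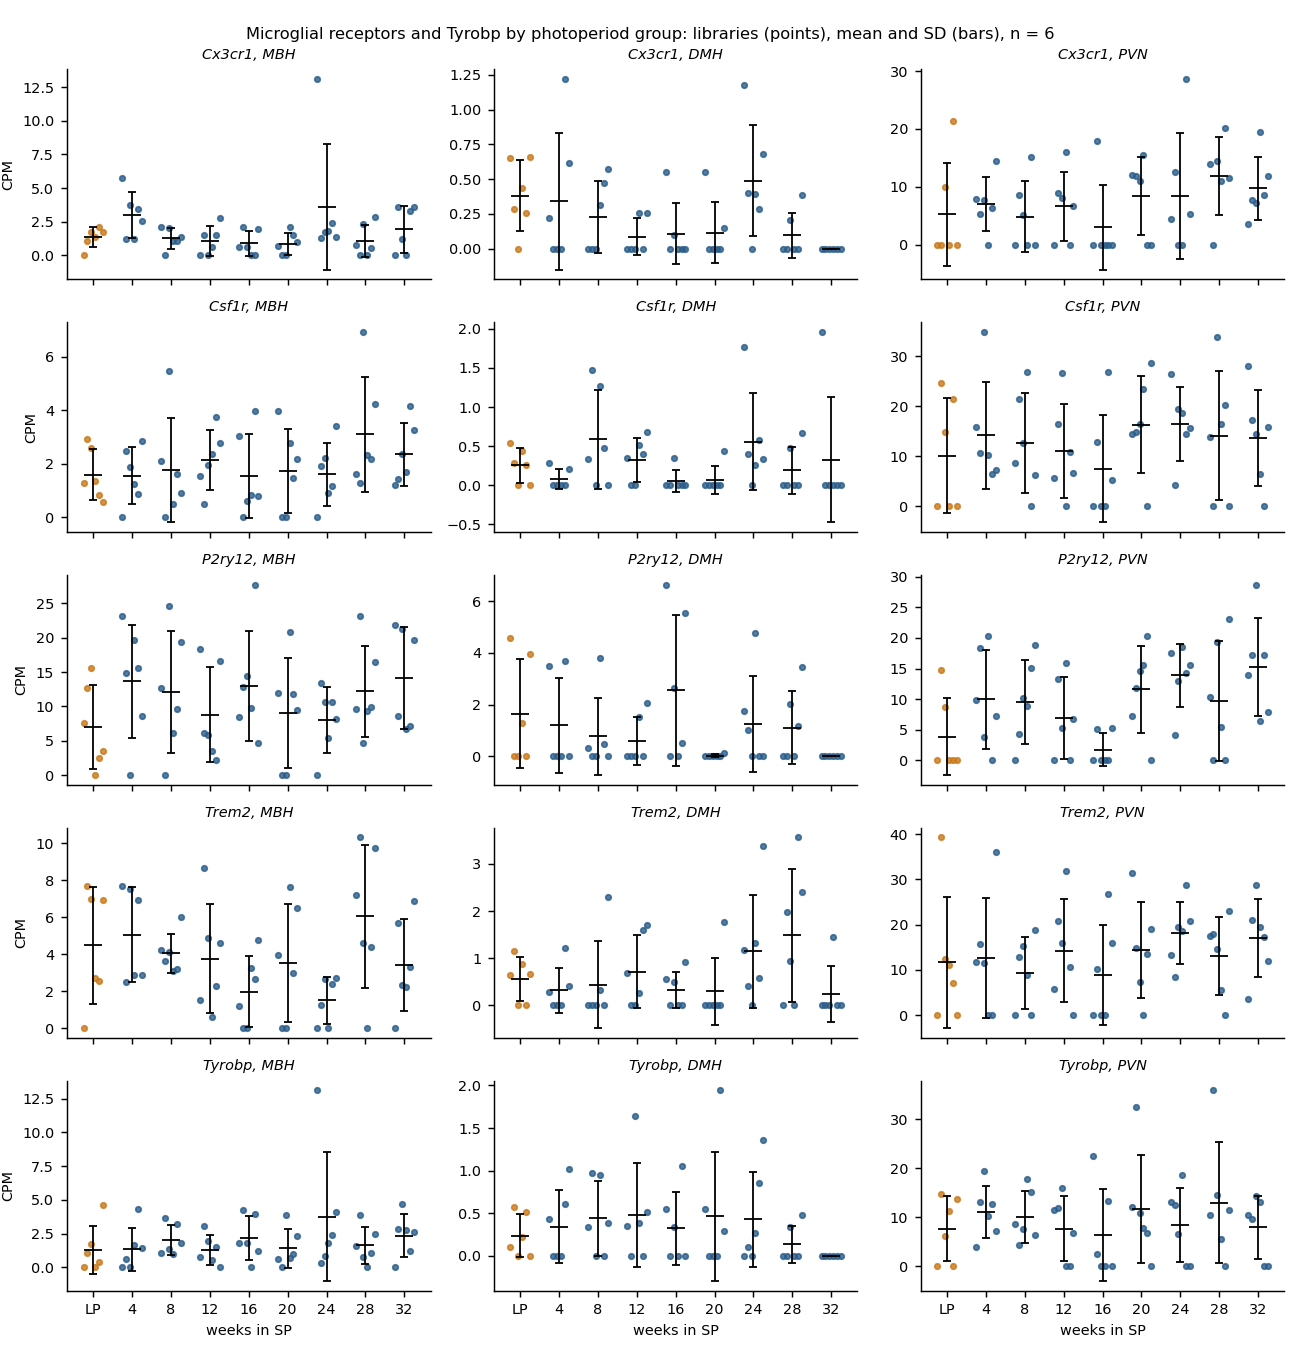
CPM of Cx3cr1, Csf1r, P2ry12, Trem2 and Tyrobp (vertical axes) by photoperiod group (horizontal axis) in the MBH, DMH and PVN; points are libraries, bars the mean and SD of 6. In the DMH and PVN many libraries lie at 0, and in the MBH P2ry12 is lowest in LP (7.01 CPM) and highest at 32 weeks (14.2 CPM).

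In the DMH the members had to be read beside the make-up of the libraries. The 10 most abundant symbols took 31.7% to 96.1% of the counts of a DMH library (median 88.7%), and the TMM factors ran from 0.0850 to 7.90. In the 9 libraries without any member count these symbols took 92.8% to 95.3%, although their totals reached 2992210 counts. The 12 libraries with a TMM factor under 0.5 held at most 2 member counts each, and the 12 with a factor above 2 held 17 to 199. Libraries without member counts were 2 of 6 at weeks 4 and 16, 1 of 6 at weeks 8 and 32, 3 of 6 at week 20 and 0 in LP and at weeks 12, 24 and 28. The part of this make-up in the member values was not tested beyond leaving libraries out.

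**Figure D3:**
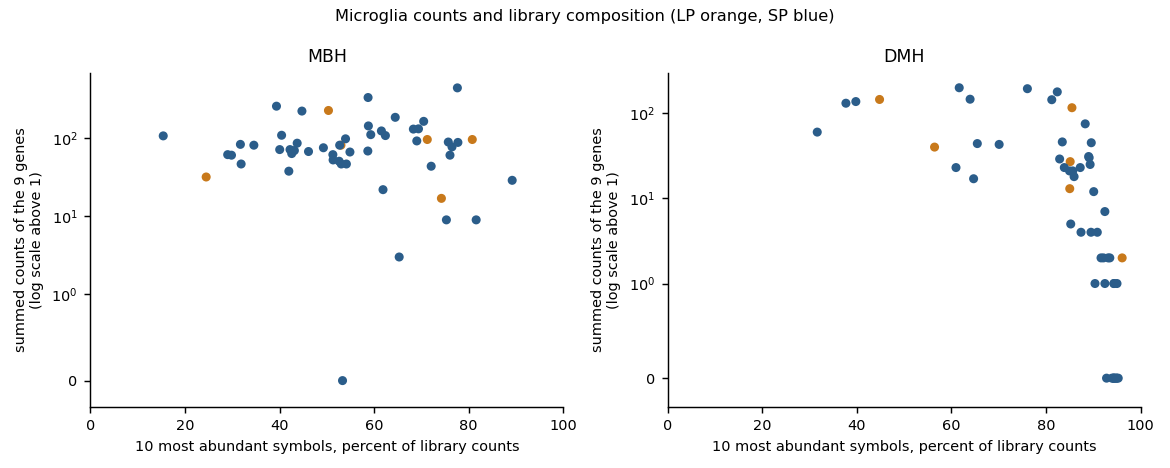
Summed counts of the 9 genes (vertical axis, log scale above 1) against the percent of library counts taken by the 10 most abundant symbols (horizontal axis) in the MBH and DMH; each point is a library, LP in orange and SP in blue. The DMH libraries at 0 member counts lie between 92.8% and 95.3%.

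Within the DMH, Cx3cr1 had the smallest p of the members over the 9 groups and among the phases. LP libraries ran from 0 to 0.660 CPM with a median of 0.361 (mean 0.382 ± 0.255, 15 counts in 5 of 6 libraries), the maintenance weeks held 10 counts in 6 of 18 libraries (mean 0.103 ± 0.184 CPM), and week 32 held 0 counts in 6 libraries. Maintenance was below LP by a log2 fold change of -1.33 (SE 0.60, 95% interval -2.53 to -0.12, unadjusted p = 0.0316, adjusted p = 0.448, edgeR), and the exact permutation test of its mean CPM gave p = 0.00836 (2-sided, unadjusted over the 27 such tests per tissue). Recovery gave the smallest p of the 3 phases in edgeR, -1.51 with an adjusted p of 0.495, yet the 24-week mean (0.490 ± 0.400 CPM, 22 counts) was the highest of the 9 groups. The recovery fold is the mean of the folds of weeks 24, 28 and 32, so it includes the group with 0 counts. Week 32 gives no bound on a fold, since 3 counts over that group would stand for 0.524 CPM, above the pooled LP level of 0.466 CPM.

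P2ry12 in the DMH was read in 21 libraries. LP ran from 0 to 4.56 CPM with a median of 0.653 (mean 1.64 ± 2.10), week 16 was highest at 2.56 ± 2.92 CPM, week 20 held 1 count and week 32 none. No fold is given for these 2 weeks, with 0 or 1 counts. The 6 entries repeat the same counts in most libraries, so every fold of the sum is given beside that of the highest entry. None of the contrasts passed in the full set: week 32 had the smallest p (unadjusted 0.0117, adjusted 0.470, edgeR), and recovery was at -2.12 (SE 1.08, adjusted p = 0.587) with the sum and -1.13 (SE 0.74, adjusted p = 0.737) with the highest entry. A phase fold is the mean of its week folds, so recovery includes week 32 with its 0 counts. Weeks 24 and 28 were at -0.32 and -0.17 with the sum, and at -0.24 and 0.40 with the highest entry. The phase folds that follow include weeks 20 and 32 in the same way. Without the 24 libraries whose TMM factor was under 0.5 or above 2, a choice made after seeing the data, P2ry12 was the 1 member called: adjusted p = 0.00288 over the 9 groups, and log2 fold changes of -3.45 in maintenance (adjusted p = 0.0805) and -4.25 in recovery (adjusted p = 0.0330), where 9.17%, 3.34% and 4.54% of all symbols were called. With its highest isoform entry in the same libraries the call was lost, at an adjusted p of 0.539 over the groups, and with log2 fold changes of -1.67 in maintenance (adjusted p = 0.502) and -2.34 in recovery (adjusted p = 0.419), edgeR. These 30 libraries left 2 to 5 per group, 3 of them in LP.

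The C1q chains of the DMH had their LP means at 2.17 ± 2.69 (C1qa), 2.37 ± 1.41 (C1qb) and 1.98 ± 1.96 CPM (C1qc), and their lowest means at 20 weeks for C1qa (0.171 ± 0.419) and C1qb (0.949 ± 1.24) and at 4 weeks for C1qc (0.369 ± 0.652). Against LP the smallest p was that of week 20 for C1qa (log2 fold change -1.70, SE 0.94, adjusted p = 0.668), week 4 for C1qb (-0.79, SE 0.67, adjusted p = 0.932) and week 4 for C1qc (-1.74, SE 0.97, adjusted p = 0.879), all by edgeR. By phase the smallest p lay in maintenance for C1qa (-0.87, 95% interval -2.16 to 0.42) and in induction for C1qb (-0.50, -1.61 to 0.61) and C1qc (-0.77, -2.28 to 0.74). The exact permutation test of C1qa in maintenance gave p = 0.0399, where an LP library stood at 7.55 CPM from 2 counts. Without the hamsters numbered 3, which include it, the exact p was 0.408, without those numbered 2 or 4 it was 0.112 and 0.0660, and with library totals in place of TMM 0.0669. Without those numbered 1, 5 or 6 the exact p was 0.0439, 0.00690 and 0.0302. Without the 24 libraries of extreme TMM factor the fitted fold change of C1qa in maintenance turned to 0.34, and with the highest isoform entry too it was 0.40.

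Csf1r, Tyrobp and Trem2 were at or below 1 CPM in most DMH groups. Csf1r ran from 0.0572 ± 0.14 CPM at 16 weeks to 0.591 ± 0.633 at 8 weeks, Tyrobp from 0 counts at 32 weeks to 0.480 ± 0.605 CPM at 12 weeks, and Trem2 from 0.240 ± 0.587 at 32 weeks to 1.48 ± 1.42 at 28 weeks. Their smallest p values were at week 4 (-0.89, SE 0.86), week 32 and week 28 (1.31, SE 0.88), with adjusted p of 0.938, 0.648 and 0.904, and by phase in maintenance (-0.43), induction (0.85) and recovery (0.62), each with an adjusted p of 0.891 or more. All 3 had overlapping groups, with libraries at 0 in every group.

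In the PVN the fitted fold changes of C1qb were below 0 at all 8 SP weeks, as in the MBH of the same hamsters, without a call. LP libraries ran from 0 to 132 CPM with a median of 70.4 (mean 71.5 ± 44.8), where the 0 is the library of 159 counts, and the lowest mean was that of 16 weeks (34.4 ± 30.9 CPM), which held 2 libraries without member counts. Week 16 had the smallest p (log2 fold change -0.83, SE 0.42, unadjusted p = 0.0548, adjusted p = 0.921, edgeR), and induction the smallest among phases (-0.61, 95% interval -1.27 to 0.05). The exact permutation test of induction gave p = 0.350 with all libraries and p = 0.0365 without the LP library of 159 counts, when the LP mean was 85.8 ± 31.2 CPM (n = 5). Leaving out the hamsters of 1 number at a time gave an exact p of 0.0446 (number 1, which holds that library) to 0.959 (number 2). The mean CPM of 12 weeks (75.8 ± 24.7) and 28 weeks (73.6 ± 41.2) lay above the LP mean that includes the library at 0.

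C1qa in the PVN ran from 23.8 ± 19.6 CPM at 16 weeks to 55.3 ± 33.1 at 4 weeks around an LP mean of 35.5 ± 28.4, and C1qc from 26.2 ± 23 at 16 weeks to 49.1 ± 13.6 at 32 weeks around an LP mean of 40.2 ± 28.5. Their smallest p values were at week 16 for C1qa (-0.61, SE 0.50, adjusted p = 0.963) and week 8 for C1qc (-0.75, SE 0.44, adjusted p = 1), and by phase in maintenance (-0.45, 95% interval -1.19 to 0.29) and induction (-0.40, -1.14 to 0.34). For every C1q chain in the PVN the lowest mean was that of 16 weeks, the group with the 2 libraries of 5158 and 22217 counts.

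P2ry12 in the PVN was read in 2 of 6 LP libraries (10 counts) and in all 6 libraries at 24 and at 32 weeks. The LP libraries ran from 0 to 14.7 CPM with a median of 0, and the recovery libraries from 0 to 28.7 CPM with a median of 14.2. The mean of recovery was 13 ± 7.79 CPM (n = 18) against 3.90 ± 6.33 in LP, and 8 of the 18 lay above every LP library. The exact permutation test gave p = 0.0182 (2-sided, unadjusted over the 27 tests per tissue) and p = 0.0439 without the LP library of 159 counts. Leaving out the hamsters of 1 number at a time gave an exact p of 0.00277 to 0.0711, with the values above 0.05 at numbers 1 (0.0711) and 6 (0.0683). By contrast edgeR gave a log2 fold change of 0.91 (SE 0.59, 95% interval -0.27 to 2.09, adjusted p = 1). Week 32 had the smallest p (1.09, SE 0.66, unadjusted p = 0.105), and 7 of 8 weeks were above LP.

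None of the other PVN members came near the threshold. Cx3cr1 had 5.21 ± 8.84 CPM in LP and a highest mean of 11.9 ± 6.67 at 28 weeks (log2 fold change 0.68, SE 0.77), Csf1r 10.1 ± 11.5 and its smallest p at week 16 (-0.45, SE 0.75), Tyrobp 7.64 ± 6.62 and its smallest p at week 20 (0.65, SE 0.67), and Trem2 11.7 ± 14.5 and its smallest p at week 8 (-0.47, SE 0.67). The phases with the smallest p were induction for Cx3cr1 (-0.36), Tyrobp (0.23) and Trem2 (-0.37) and recovery for Csf1r (0.14), and the adjusted p was 1 for each of these weeks and phases in edgeR. Tmem119 was read in 13 libraries, each of which held 1 or 2 counts, and no fold is given.

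**Figure D4:**
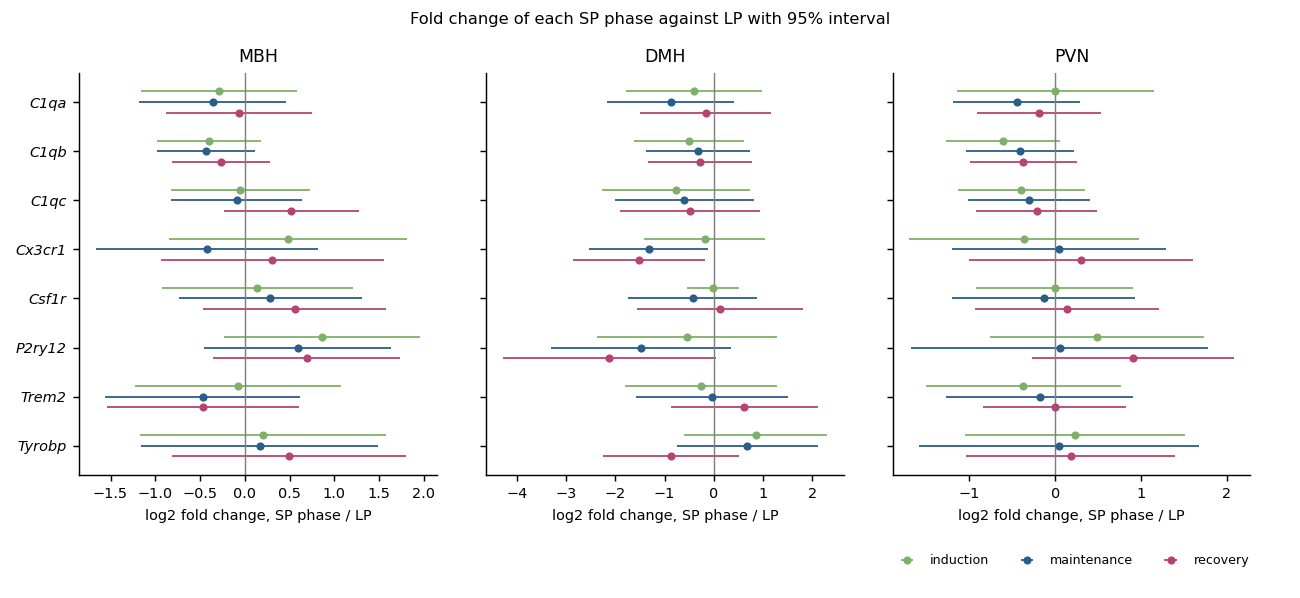
Log2 fold change of each SP phase against LP (horizontal axis) with its 95% interval for 8 members (vertical axis) in the MBH, DMH and PVN; colours mark the phase. The estimates of C1qb lie below 0 in all 3 phases and tissues, and those of P2ry12 above 0 in the MBH, with intervals that hold 0. The DMH intervals of Cx3cr1 in maintenance and recovery lie below 0, at adjusted p of 0.448 and 0.495 (edgeR). The DMH recovery estimates of Cx3cr1, P2ry12 and Tyrobp include week 32, which held 0 counts of each.

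In the pituitary gland the members gave counts too low for a level by group. LP held 1 count of C1qa, 1 of C1qb, 2 of C1qc and 1 of Csf1r over 6 libraries, and the most in any group were 8 counts of C1qc at 16 weeks in 3 of 6 libraries. Tyrobp had 7 counts, 4 of them in 1 library of 20 weeks, and Cx3cr1, Trem2, P2ry12 and Tmem119 had 1 count each over all 54 libraries. No fold by photoperiod is given for the gland, since 3 counts over a group is the floor and LP was at or below it for each member. The smallest unadjusted p over the 9 groups was that of C1qb (0.0543, adjusted p = 0.298, edgeR), and of the cycle that of Tyrobp (0.0163, adjusted p = 0.188).

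The MBH and DMH of the same 54 hamsters were then compared, with the hamster as a block. P2ry12 and C1qc were higher in the MBH, the first by a log2 ratio of 1.21 (SE 0.40, 95% interval 0.42 to 2.00, adjusted p = 0.0120) and the second by 0.71 (SE 0.31, 0.08 to 1.33, adjusted p = 0.0697), both by edgeR. With 39.6% of all 17760 shared symbols called higher in the MBH, 2 of 9 members is not above the background (2.9% were called lower, and 0 of the 9), and the median log2 ratio of all symbols was 0.58, close to that of C1qc. C1qa (-0.20), C1qb (0.18), Cx3cr1 (0.03), Csf1r (0.13), Trem2 (-0.11), Tyrobp (-0.41) and Tmem119 (-0.45) did not pass. With library totals in place of TMM, which moved the median of all symbols to 2.41, 8 of the 9 were called higher in the MBH, as were 81.5% of all symbols, and C1qa, Tyrobp, Trem2 and Tmem119 changed sign. Both calls were lost with the highest entry of each gene in place of the sum. The log2 ratio was then 0.10 for P2ry12 (adjusted p = 0.892) and 0.11 for C1qc (adjusted p = 0.722), edgeR, and 0 of 9 were called higher, against 23.7% of all symbols. That setting changes every symbol and moved the median of all to 0.24. The part of the entries of P2ry12 and C1qc alone was not tested. Leaving out hamsters of 1 number at a time ended the call of C1qc at numbers 1, 2, 3, 5 and 6 and that of P2ry12 at 2 and 5.

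**Figure D5:**
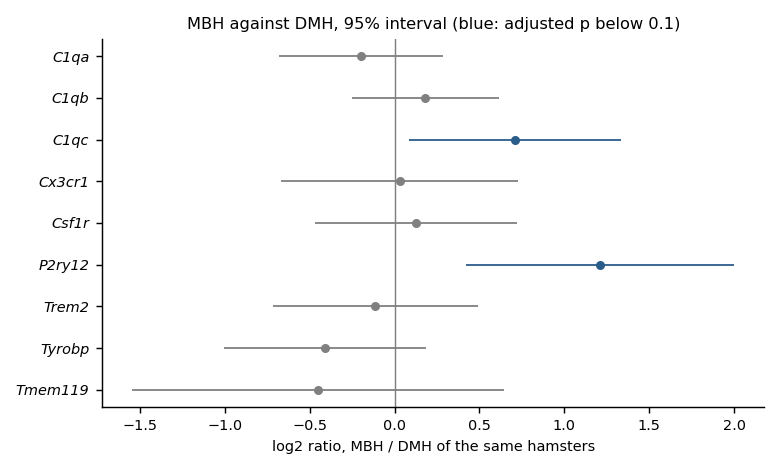
Log2 ratio of MBH over DMH (horizontal axis) with its 95% interval for the 9 genes (vertical axis), 54 hamsters, TMM scaling; blue marks an adjusted p below 0.1. P2ry12 (1.21) and C1qc (0.71) lie right of 0 and the other 7 intervals hold 0.

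The pituitary gland was set against the MBH in the same way, though the methods of the study name another library kit for the gland and its libraries were shallower. All members but Tmem119 were called lower in the gland with TMM scaling, 8 of 9 against a background of 47.1% of 17147 symbols called lower and 60.3% called in either direction. The log2 ratios of the members with more than 3 gland counts were -2.89 for C1qb (SE 0.31, adjusted p = 1.4533e-12), -2.39 for Csf1r (SE 0.34), -2.25 for C1qc (SE 0.35), -2.01 for C1qa (SE 0.33) and -1.88 for Tyrobp (SE 0.41), all by edgeR. Cx3cr1, Trem2 and P2ry12 passed as well, but each had 1 count in the 54 gland libraries, against 158, 406 and 1073 in the MBH. Scaled by the totals of the pooled libraries this made Cx3cr1 0.111 times (95% counting interval 0.00280 to 0.628) its MBH level, an interval that covers counting error only. By the same scaling C1qb was at 0.241 times (0.142 to 0.383) and Csf1r at 0.321 (0.0866 to 0.833). C1qc was at 0.496, without a counting interval, since its sums repeat counts over 2 entries in both tables. The entries were equal in 44 of 52 MBH and 9 of 16 gland libraries. C1qa was at 0.504 (0.286 to 0.826) and Tyrobp, on 7 gland counts, at 0.754 (0.298 to 1.59), an interval that holds 1. These ratios lay nearer to 1 than the fitted log2 ratios of the same genes. For P2ry12 and Trem2 no ratio is given, since their MBH sums repeat counts over 6 and 2 entries and the gland table has 1 entry for each. The scaling moved these values: the median of all symbols was -0.81 with TMM, -0.29 with library totals and 0.26 with DESeq2 size factors, and under the last C1qa (-0.86) and Tyrobp (-0.98) no longer passed.

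Other genes of microglia and of the pathways around the members were counted from lists set beside them. Of 34 further microglia and macrophage genes in the MBH table, among them the lysosomal protease Ctss (2969 counts) and the cytoskeletal Aif1 (1574), 0 passed over the 9 groups, and 0 of 30 did in the PVN. In the DMH 5 of 34 passed (4.62% of all symbols did), Ptprc, Spi1, Siglech, Ly86 and Apbb1ip, on 42, 12, 15, 27 and 37 counts in 5, 5, 6, 12 and 10 libraries. In the pituitary gland 8 of 33 passed (9.56% of all symbols did), Spi1, Unc93b1, Ptprc, Hpgds, Fcgr3, Fcer1g, Apbb1ip and Aif1, on 6 to 51 counts each, with all 9 counts of the leukocyte phosphatase Ptprc from 1 library. None of these genes remained after edgeR's filter on low counts, which kept 3 of the 34 in the DMH and none in the gland.

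Of the ligands, Cx3cl1, Csf1, Il34, Apoe and Clu were each in all 4 tables, and 0 of 5 passed in the MBH, DMH and PVN; Csf1, the ligand of Csf1r, passed in the gland (adjusted p = 0.0858, edgeR) on 38 counts in 7 libraries. Of the complement genes downstream of C1q, 0 of 11 passed in the MBH and 0 of 7 in the PVN, C4b passed in the DMH (adjusted p = 0.0324, 148 counts in 13 libraries) and the C5a receptor C5ar1 in the gland (0.0751, 7 counts in 2 libraries). Of the Trem2 and Tyrobp signalling genes, 0 of 8 passed in the MBH and 0 of 7 in the PVN, Inpp5d, a phosphatase that limits this signal, and the kinase subunit Pik3cd passed in the DMH (91 and 19 counts), and Inpp5d in the gland (10 counts). Of genes raised in activated microglia, 0 of 12 passed in the MBH and 0 of 10 in the PVN and the gland, and 1 of 11 in the DMH, the lipase Lpl (30 counts in 15 libraries). Over all symbols 4.62% passed in the DMH and 9.56% in the gland. None of the called ligand, complement, signalling or activation genes remained after the filter on low counts, so nothing is drawn from these few calls. The median log2 fold change of the 34 further microglia genes in the MBH was -0.24, -0.26 and -0.14 in induction, maintenance and recovery, against 0 for all symbols, and in the DMH -0.42, -0.45 and -0.56 against -0.17, -0.26 and -0.26. With no filter, the median of all symbols includes many of few counts, so it is no reference of like expression. For the members read in at least 27 libraries the median over the phases was 0.05 in the MBH and -0.33 in the DMH.

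Markers of other cells moved with photoperiod in the MBH. The pituitary hormone genes Tshb, Prl and Cga passed over the 9 groups, and the summed level of the pituitary list was 763 to 2342 CPM in LP against group medians of at most 376 CPM in the SP groups; the muscle genes Neb and Tnnt3 passed as well, with up to 659 CPM of the muscle list in 1 LP library. In the DMH the muscle genes Neb, Ttn, Myh4, Tnnt3 and Acta1, the pituitary Tshb, the astrocyte gene Gfap and the endothelial Cdh5 passed (4.62% of all symbols did), and 1 library of 28 weeks held 3057 CPM of muscle genes. Neb had 657 of its 670 counts in 1 library and Ttn 728 of 786, and none of these DMH genes remained after the filter. In the gland the hormone genes Prl and Gh passed (9.56% of all symbols did). So did Neb, the glial genes Slc1a3 (12 counts) and Mobp (14 of 15 counts in 1 library) and the neutrophil genes S100a9 (350 counts, all in 1 library) and Ltf. Of these gland genes only Prl and Gh remained after the filter. No such marker passed in the PVN. The part of these cells in the member values was not tested.

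The genes most like each member over the 54 libraries of a tissue, by Spearman correlation of log2 CPM, were rarely members themselves. Among 8 members in the MBH, 5 in the DMH and 8 in the PVN that were read in at least 27 libraries, members held 1 of the 24, 0 of the 15 and 0 of the 24 highest 3 places, the 1 being C1qa beside C1qc in the MBH (rho = 0.52). The nearest genes were Ap1s1 for C1qb (0.68), Cox7a2l for C1qa (0.62), Igsf8 for C1qc (0.54), Crat for Csf1r (0.62), Slc1a3 for Cx3cr1 (0.51), Grpel2 for P2ry12 (0.60), Mrpl51 for Trem2 (0.69) and Rpl36 for Tyrobp (0.56) in the MBH. In the PVN they were Atp5f1d (C1qa, 0.58), Nutf2 (C1qb, 0.64), Fth1 (C1qc, 0.67), Runx1t1 (Cx3cr1, 0.73), Cenpc (Csf1r, 0.62), Secisbp2 (P2ry12, 0.57), Utp11 (Trem2, 0.57) and a numbered locus for Tyrobp. In the DMH they were Med29 (C1qa, 0.65), Nudt4 (C1qb, 0.77), Jade1 (C1qc, 0.84), Gga2 (Tyrobp, 0.81) and Dpp8 (Trem2, 0.73). Between the members themselves the correlations over the MBH libraries ran from -0.11 to 0.52 with a median of 0.25. All of these values share library depth and composition, and the members' own correlation with the library total ran from 0.14 to 0.30 in the MBH.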

How the data were processed

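Polyadenylated RNA of 216 libraries was sequenced as Nanopore cDNA; the labels name 1 PCR-cDNA kit for all tissues and the methods a direct cDNA kit for the pituitary gland. Per the methods, the authors aligned hamster reads of all tissues to the mouse genome (GRCm39) with minimap2, counted isoforms with Salmon 0.14.2 and filtered low transcripts with edgeR 3.24.3, so reads that differ from mouse may be missed. They deposited estimated counts per isoform in 1 table per tissue. The isoform identifiers of the PVN table were absent from the other tables, although the methods name the same genome. Every sample column matched a label (0 left unmapped). Here isoforms were summed by symbol and rounded, and edgeR 4.0.16 (R 4.3.3) quasi-likelihood tests with TMM scaling and no filter on low counts were run on all symbols of a tissue, with Benjamini-Hochberg adjustment and a threshold of 0.1. MBH and DMH, and pituitary gland and MBH, were compared with the hamster as a block, since the labels give each hamster 1 number across tissues. Exact permutation tests enumerated every split with numpy 2.4.6, counting intervals used scipy 1.17.1, and DESeq2 1.42.0 was an alternative. The median log2 ratio of all symbols for the pituitary gland against MBH moved with the scaling, so 3 scalings are given there. All 9 members were named in every tissue, with the week and phase of smallest p, the 3 genes most like each member read in at least 27 libraries, and list genes that passed the test over groups. The members and lists were chosen with earlier results of these data known. The labels name no separate housing or culture beyond the hamster. Sequences are not shown.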

Additional observations from a re-analysis of the deposited data

Results flagged for a closer look

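In 21 of the 189 groups of 6 hypothalamic libraries tested, 1 library stood apart from the other 5 by Dixon's criterion at 95%. Chance meets it in about 1 in 20 groups of normally distributed values. The values here are CPM of few counts, often 0, so that rate does not apply and 21 is not read as an excess. In the MBH the values that stood apart were C1qb at 8 weeks, replicate 2 (3.65 CPM, low), and 5 values of 24 and 28 weeks. Replicate 1 of 24 weeks, a library of 71577 counts, had 0 CPM of C1qb, 78.7 CPM of C1qc from 6 counts, and 13.1 CPM of Cx3cr1 and 13.1 CPM of Tyrobp from 1 count each. C1qc stood at 27.8 CPM in replicate 3 of 28 weeks. In the DMH C1qa stood at 7.55 CPM in LP replicate 3, 4.83 CPM at 4 weeks and 1.03 CPM at 20 weeks, C1qb at 5.89 CPM at 32 weeks, and C1qc at 4.10 CPM at 20 weeks. Tyrobp stood at 1.64 CPM at 12 weeks and 1.94 CPM at 20 weeks. Trem2 stood at 1.22 CPM at 4 weeks, 2.30 CPM at 8 weeks, 1.76 CPM at 20 weeks and 1.44 CPM at 32 weeks. In the PVN they were Cx3cr1 at 16 weeks (17.9 CPM), Csf1r at 4 weeks (34.9 CPM), Tyrobp at 20 weeks (32.6 CPM) and Trem2 in LP (39.3 CPM).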

How the results depend on the processing

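Over the 9 groups, weeks, phases and cycle, 0 members were called under every setting run, except without the 24 DMH libraries of extreme TMM factor, which gave 1 over the groups and 2 phase calls, all of P2ry12. The replicate block within a tissue left 0 member calls. Same-numbered hamsters of different groups correlated at a mean of 0.0580 to 0.0963 with negative lowest values, and differently numbered ones at a mean of -0.0153 to -0.00279. The numbers were not taken as pairs in the main tests, and whether a number marks a batch was not tested.

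Against 2 members called higher in the MBH than in the DMH (39.6% of all symbols), library totals gave 8 (81.5%), a threshold of 0.05 gave 1 (34.3%), no replicate block 1 (29.9%), leaving out libraries under 10000 counts 1 (37.4%), filtering low counts 0 of the 2 kept (57.7%), the highest isoform 0 (23.7%), and leave-one-out 0 to 2 (28.9% to 36.7%). For the pituitary gland against MBH the filter kept no member and gave 0. These log2 ratios of MBH over DMH changed sign: C1qa 0.0794 (DESeq2 size factors) and 1.95 (totals), C1qb -0.0629 (filter), Cx3cr1 -0.18 (no replicate block), -0.00671 (without small libraries) and -0.0570 (highest isoform), Csf1r -0.0510 (no replicate block), Tyrobp 1.45 (totals), Trem2 0.18 (size factors) and 1.94 (totals), and Tmem119 0.23 (totals). Leaving out 1 replicate number gave C1qb -0.00500 to 0.30, Csf1r -0.0218 to 0.21, Cx3cr1 -0.0882 to 0.0943, Trem2 -0.33 to 0.0324 and Tmem119 -0.81 to 0.0106, and for the gland Tmem119 -0.74 to 0.59.

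Against LP, sign changes were C1qa in DMH maintenance (0.34 without extreme TMM factors, 0.40 with the highest isoform too), Trem2 in DMH recovery (-0.13, totals), and with DESeq2 in the PVN Csf1r in recovery (-0.0754) and Tyrobp in induction (-0.19) and at week 20 (-0.11). Leave-one-out gave Trem2 in DMH recovery -0.54 to 1.02, and in the PVN Csf1r in recovery -0.0370 to 0.53, Tyrobp in induction -0.15 to 0.60, Trem2 in induction -0.87 to 0.27 and Trem2 at week 8 -0.88 to 0.17. The cause was not tested. DESeq2 was not run for the tissue pairs. Depth limits the gland most (median 81120 counts); the DMH had the highest median total, and its low member counts went with the share of the 10 most abundant symbols.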
